A study of Mus musculus with 12 samples.

Results

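The prefrontal cortex of 4-month-old female C57BL/6JN mice was compared between morphine (3 mg/kg, intraperitoneal) and saline. The comparison took the 3 libraries titled as young morphine and the 3 titled as young saline, 6 of the 12 libraries of the series. The other 6 came from 20-month-old females of that strain under the 2 treatments, and they entered the model only to estimate the spread and to test whether the effect differed with age. Total RNA was depleted of ribosomal RNA and sequenced, and reads were assigned to transcripts. The labels give no genotype, no number of injections and no interval between injection and tissue collection. They do not say that each library is a separate animal either, so p-values measure the spread between libraries, which may be technical.

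Morphine is an opioid that acts chiefly on the mu opioid receptor, a receptor coupled to inhibitory G proteins that lowers cyclic AMP, opens potassium channels and reduces transmitter release. Firing and growth signals in cortical neurons switch on the immediate early genes, which are transcribed without prior protein synthesis. They encode transcription factors and synaptic proteins, such as Fos and Arc. Cells also adjust their protein folding capacity through the unfolded protein response of the endoplasmic reticulum, and glial and neuronal genes such as Fkbp5 follow circulating glucocorticoids, whose release opioids are known to alter.

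The 4-month libraries held 25574646 to 40480571 estimated reads each, except morphine replicate 2 with 148856113, 4.31 times the median of the other 11 libraries of the series. All 12 upper-layer and all 17 deep-layer cortical neuron markers passed the filter on low counts, as cortical tissue would hold them, but the libraries differed in their balance. The mean log2 CPM (read counts relative to library size, scaled by the trimmed mean of M values) of deep-layer minus upper-layer markers was -2.44, -2.76 and -2.80 with saline and -2.31, -2.21 and -1.98 with morphine. Morphine replicate 3 also carried olfactory bulb neuron transcripts, with a mean log2 CPM of 3.92 over 15 markers against 1.17 to 1.79 in the other 5 libraries. In bulk tissue, fewer cells of a type and less RNA per cell cannot be told apart.

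No gene passed an adjusted p of 0.05 at 4 months in edgeR's quasi-likelihood test with Benjamini-Hochberg adjustment (0 of 16796 genes, 0.0%), and the smallest adjusted p was 0.0625. An unadjusted p under 0.05 was found for 1530 genes (9.11%), 825 higher with morphine (4.91%) and 705 lower (4.2%), where a uniform spread of p would give 840. That split was 565 higher and 827 lower once the trend with GC share and length was removed. It was 571 and 910 with a myelin marker score in the model, and 321 and 513 with the layer marker score. Both scores stood apart between the 4-month groups, so fits with a score cannot tell a morphine effect from the marker balance. The 3 values of each group did not overlap for 1390 genes that were higher with morphine (8.28%) and 1381 that were lower (8.22%). DESeq2 called 164 genes at an adjusted p under 0.05 (0.976%), 86 higher and 78 lower, and limma-voom called Inf2 and Serinc2 alone. Leaving out saline replicate 1 raised edgeR's count from 0 to 67 genes, 40 of them among DESeq2's 164 (24.4% of that list, 59.7% of the 67). An exact two-sided permutation test of 3 libraries against 3 cannot go below p = 0.1. The values that follow are therefore a description of where the libraries of each group stood, with adjusted p from edgeR unless DESeq2 is named.

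The genes that separated the 4-month groups most clearly on the higher side were led by Inf2, Serinc2 and Cntn2. Inf2 encodes an actin-nucleating and -severing formin on chromosome 12 (112588784 to 112615557, GRCm38). It stood at 96.8, 82.1 and 84.6 CPM with saline and at 113.6, 128.2 and 122.7 CPM with morphine. Every morphine library was above every saline library, with a log2 fold change of 0.47 ± 0.07 (SE) and an adjusted p of 0.0625. Serinc2, of the serine incorporator family of membrane proteins (chromosome 4, 130253495 to 130279205), read 2.63, 1.27 and 1.59 CPM with saline and 6.00, 5.49 and 4.58 CPM with morphine. Its groups were well apart, with a log2 fold change of 1.54 ± 0.24 and an adjusted p of 0.0625. Cntn2, a contactin that holds potassium channels beside the nodes of myelinated axons (chromosome 1, 132509427 to 132543256), read 80.4, 68.8 and 69.3 CPM, then 99.9, 102.9 and 101.2 CPM with morphine. The morphine values were nearly the same in the 3 libraries, and the log2 fold change was 0.48 ± 0.08 with an adjusted p of 0.101.

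The other 9 higher genes encode enzymes, channel subunits and membrane proteins. Dusp4, a phosphatase that switches off MAP kinases, read 8.37, 5.97 and 6.70 CPM with saline and 12.1, 11.3 and 10.6 CPM with morphine, a log2 fold change of 0.69. Kcnab3, a beta subunit of voltage-gated potassium channels, read 17.6, 10.8 and 12.3 CPM and then 25.1, 21.8 and 26.7 CPM, a log2 fold change of 0.85. Neither gene overlapped between the groups, although saline replicate 1 was the highest saline library for both. Kcnk12, a background potassium channel, had a mean of 5.99 ± 0.27 CPM (SD, n = 3) with saline and 8.99 ± 0.39 with morphine. Tpbg, a leucine-rich repeat membrane glycoprotein, had 6.43 ± 0.34 CPM with saline and 10.9 ± 0.89 CPM with morphine (SD, n = 3), a log2 difference of 0.76. Pfkfb3, whose product drives glycolysis through fructose 2,6-bisphosphate, read 36.4, 30.5 and 35.1 CPM against 44.6, 46.3 and 44.3 CPM. The kinases Sbk1 and Mapk11, the heparan sulfate proteoglycan Gpc1 and the synaptotagmin Syt12 complete the 12, with log2 fold changes of 0.43, 0.34, 0.41 and 0.34.

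The 12 lower genes included Nyap2, Plagl1 and Hapln1, and Nyap2 had the smallest p. Nyap2, a neuronal adaptor that joins PI3 kinase to the WAVE complex of actin assembly (chromosome 1, 81076950 to 81341764), read 114.3, 123.1 and 118.2 CPM with saline and 85.2, 90.5 and 96.2 CPM with morphine. All morphine libraries were below all saline libraries, with a log2 fold change of -0.39 ± 0.06 and an adjusted p of 0.0625. Plagl1, an imprinted zinc finger transcription factor (chromosome 10, 13060504 to 13131694), read 37.3, 33.1 and 34.6 CPM, then 24.8, 24.2 and 25.9 CPM, a log2 fold change of -0.49 ± 0.09. Its mean TPM was nearly equal, 28.4 ± 5.80 with saline and 27.3 ± 4.44 with morphine (SD, n = 3), and with length-scaled counts its log2 fold change was -0.14. Hapln1, the link protein that ties proteoglycans to hyaluronan in perineuronal nets (chromosome 13, 89539796 to 89611652), read 27.3, 26.1 and 28.6 CPM against 18.8, 18.7 and 19.1 CPM. Within each group the 3 Hapln1 values were close together, and the log2 fold change was -0.54 ± 0.11 with an adjusted p of 0.141. Usp2, a deubiquitinase, was also tight within groups, at 86.3, 87.4 and 86.2 CPM with saline and 69.3, 65.7 and 67.3 CPM with morphine. Megf9, Kitl (the ligand of the Kit receptor), March1 (a membrane ubiquitin ligase), Cav2 (a caveolin), Car4 (a membrane carbonic anhydrase), Zkscan16, Arfgef3 and Vwa3a had log2 fold changes of -0.24 (Arfgef3) to -0.57 (Vwa3a). For Kitl the log2 fold change was -0.40, but -0.05 with length-scaled counts, and its mean TPM was 46.6 ± 4.995 with saline and 47.7 ± 6.25 with morphine (SD, n = 3).

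**Figure D1:**
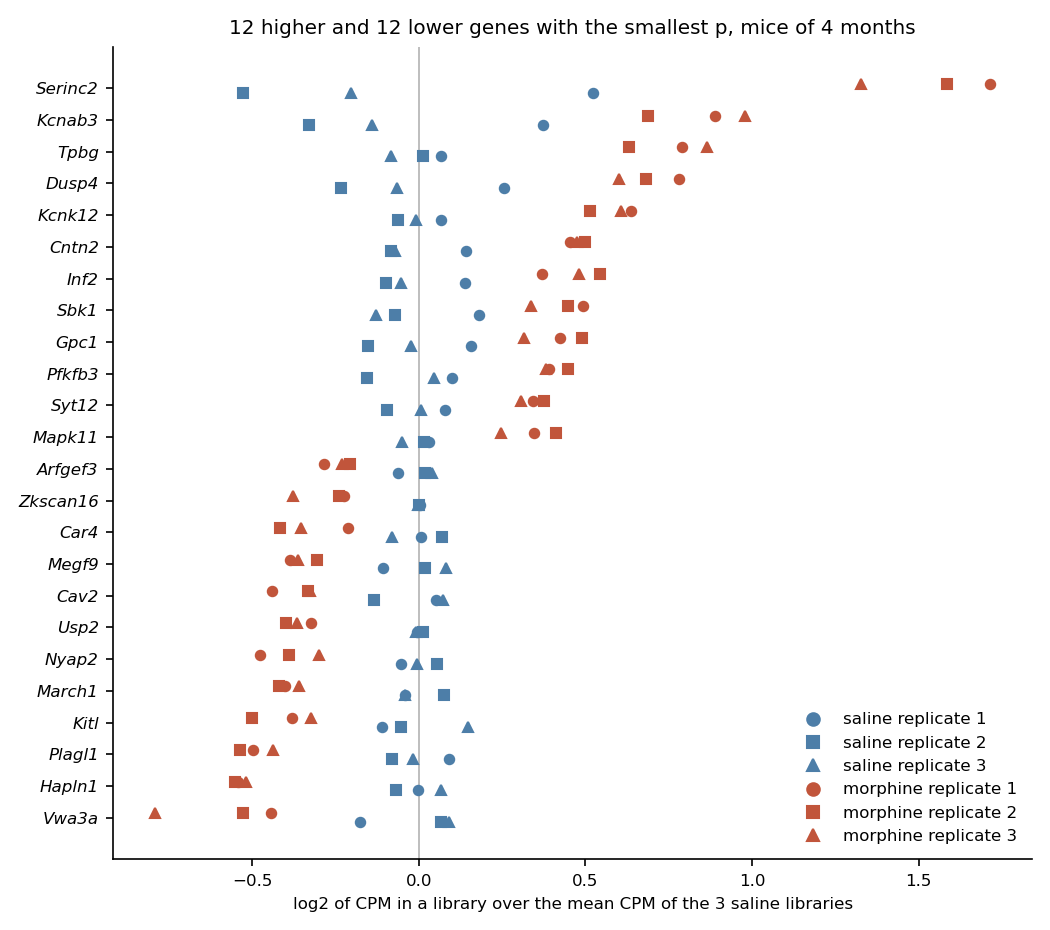
Each point is 1 library of the 4-month mice: the log2 of its CPM over the mean of the 3 saline libraries, for the 12 higher and 12 lower genes with the smallest p (the rule required no overlap of the groups). Serinc2 lies farthest to the right, and the morphine points of Hapln1 and Usp2 fall almost on top of each other.

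These 24 genes were ranked by p, so their separation is a description and not a further test. Their adjusted p ran from 0.0625 to 0.141 in edgeR, and DESeq2 called all 24. All 24 had an unadjusted p under 0.05 when any 1 of the 6 libraries was left out and with the layer score in the model. Some log2 fold changes shrank with the marker scores and others did not. With the layer score Kcnab3 was at 0.46 instead of 0.85 and Tpbg at 0.43 instead of 0.76. With the myelin score Cntn2 was at 0.27 instead of 0.48 and Pfkfb3 at 0.22 instead of 0.41. Plagl1 was at -0.68 with the layer score and -0.64 with the myelin score, instead of -0.49. At an adjusted p of 0.05, 14 of them passed without saline replicate 1. In the 20-month mice, a separate set of libraries, 17 of the 24 had the same sign, beside 55.1% of all genes tested, and 11 had the same sign with an unadjusted p under 0.05. Gpc1, Usp2 and Hapln1 overlap a tested gene on the other strand, and whether counting used strand is not given in the sources used here.

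Immediate early genes stood mostly higher with morphine at 4 months. Of 37 tested, 12 were higher and 1 was lower at an unadjusted p under 0.05, against 4.91% and 4.2% of all genes, and none passed the adjusted threshold. Their groups did not overlap for 9 genes above and 1 below, against 8.28% and 8.22% of all genes. The median log2 fold change was 0.24 beside -0.002 over all genes. Arc, which encodes a cytoskeleton-associated protein that controls AMPA receptor uptake at synapses (chromosome 15, 74669083 to 74672570), read 80.6, 48.9 and 57.0 CPM with saline and 124.3, 117.8 and 106.6 CPM with morphine. The lowest morphine library was above the highest saline library, saline replicate 1, and the log2 fold change was 0.90 ± 0.23 with an adjusted p of 0.280 in edgeR and 0.0242 in DESeq2. Egr2, a zinc finger factor of this class, read 4.795, 3.34 and 3.37 CPM and then 7.70, 5.85 and 5.23 CPM, a log2 fold change of 0.70 ± 0.18 with an adjusted p of 0.212 in edgeR and 0.0420 in DESeq2. Ier5, a regulator of heat shock and growth transcription, was even among the morphine libraries, at 64.2, 48.6 and 53.4 CPM with saline and 73.8, 76.9 and 72.9 CPM with morphine. Its log2 fold change was 0.43 ± 0.10, with an adjusted p of 0.158 in edgeR and 0.00874 in DESeq2.

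Further members of the list were read in each library. Nptx2, a pentraxin that clusters AMPA receptors, read 36.04, 28.6 and 31.9 CPM with saline and 47.4, 42.9 and 38.9 CPM with morphine. Vgf, the precursor of neuronal growth peptides, read 221.6, 205.0 and 196.0 CPM and then 265.9, 261.9 and 233.6 CPM. Both sets were apart, with log2 fold changes of 0.42 and 0.29 and edgeR adjusted p of 0.260 and 0.310. Fos, the partner of Jun in the AP-1 factor, was less clear: 9.69, 4.84 and 5.91 CPM with saline and 11.6, 11.6 and 9.22 CPM with morphine. Saline replicate 1 lay above morphine replicate 3, so the groups overlapped, and the log2 fold change of 0.66 ± 0.24 had an adjusted p of 0.429. The orphan nuclear receptors Nr4a2 and Nr4a3, the kinase Sik1, the pseudokinase Trib1, the zinc finger factor Klf10 and Egr3 were the other higher members, with log2 fold changes of 0.32 (Trib1) to 0.58 (Nr4a3).

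Some early genes did not share that order. Npas4, a transcription factor induced by calcium entry, read 10.4, 14.8 and 12.3 CPM with saline and 12.1, 15.2 and 12.95 CPM with morphine. These values were interleaved, and the adjusted p was 0.953. Junb had a log2 difference of -0.01 ± 0.15, and Egr1 one of 0.36 ± 0.21 with overlapping groups at 248, 160.3 and 191 CPM against 268, 260.4 and 242 CPM. Btg2, an antiproliferative early gene, was the lower member: 9.54, 11.2 and 9.72 CPM with saline and 8.78, 7.84 and 8.03 CPM with morphine, a log2 fold change of -0.31.

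The count of higher early genes changed with the library left out and with the marker scores in the model. Saline replicate 1 was the highest saline library for Arc, Fos, Egr2, Ier5, Nptx2 and Vgf. With each 4-month library left out in turn, the number of higher members ran from 9 to 19, the 19 without saline replicate 1, and the median from 0.16 (without saline replicate 2) to 0.38 (without saline replicate 1). With the layer score in the model the median was 0.15 and 6 members had an unadjusted p under 0.05. With the myelin score the median was 0.04, and the log2 fold change was 0.32 for Arc and 0.00 for Fos. The myelin markers themselves summed to 976.3 to 1303 CPM with saline and 1374 to 1531 CPM with morphine, and their part in the result was not tested. Because both scores stood apart between the 4-month groups, these fits cannot tell a morphine effect from the marker balance.

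**Figure D2:**
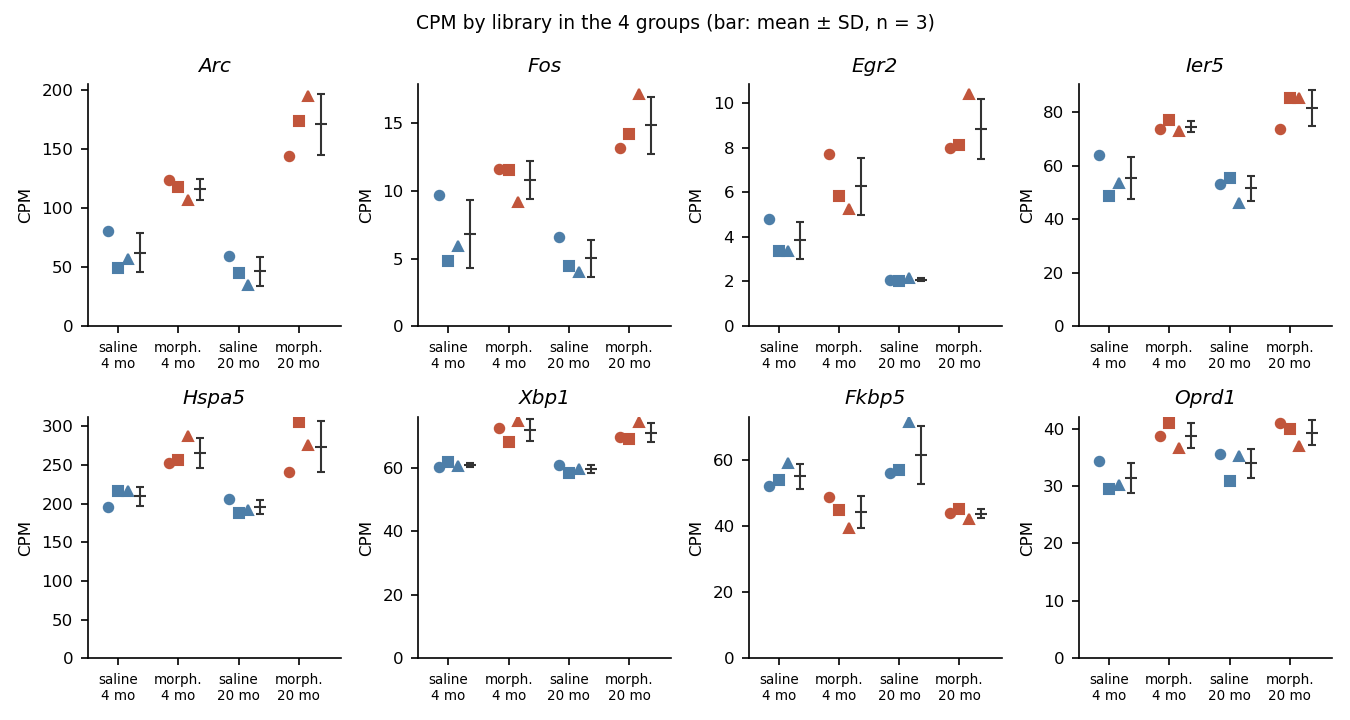
CPM of 8 genes in each library of the 4 groups, with the mean and SD of each group (n = 3); the vertical axes start at 0. At 4 months Arc, Egr2, Ier5, Hspa5, Xbp1 and Oprd1 show no overlap between saline and morphine, Fkbp5 lies lower with morphine, and Fos overlaps through 1 saline library.

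Genes of the unfolded protein response stood mostly above saline. Of 24 tested, 12 had an unadjusted p under 0.05 and all 12 were higher with morphine, against 4.91% of all genes. The groups were also apart for 12, all of them higher, against 8.28% of all genes, and the median log2 fold change was 0.15 with 22 of 24 above 0. The summed CPM of the list was 2365 to 2497 in the saline libraries and 2604 to 2700 in the morphine libraries. The count was 6 without morphine replicate 3 and 11 at most over the 6 left-out libraries, and with the layer score 8 members had an unadjusted p under 0.05 and the median was 0.14. With the myelin score the median was 0.07.

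The factors that drive the response and the chaperones that they induce were both on the higher side. Xbp1, the transcription factor whose messenger is spliced by IRE1 (chromosome 11, 5520659 to 5525893), read 60.2, 61.6 and 60.5 CPM with saline and 72.5, 68.0 and 74.7 CPM with morphine. The 3 saline values were nearly equal, and the log2 fold change was 0.24 ± 0.05 with an adjusted p of 0.154 in edgeR and 0.00935 in DESeq2. Hspa5, the main HSP70 chaperone of the endoplasmic reticulum (BiP, chromosome 2, 34771970 to 34777547), read 195.4, 216.2 and 216.7 CPM and then 252.6, 255.9 and 287.4 CPM. Morphine replicate 3 was the highest library and the groups were apart, with a log2 fold change of 0.34 ± 0.08 and an adjusted p of 0.167 in edgeR and 0.0166 in DESeq2. Manf, a secreted protein of the reticulum, read 34.4, 33.8 and 36.3 CPM against 39.7, 41.2 and 43.3 CPM. Sdf2l1, a cofactor of BiP, read 7.35, 7.90 and 6.98 CPM against 8.93, 10.6 and 11.1 CPM. Neither overlapped, and the log2 fold changes were 0.25 and 0.46 with edgeR adjusted p of 0.270 and 0.297. The disulfide isomerase Pdia6 was even within groups, at 82.1, 81.8 and 82.8 CPM and then 92.0, 92.5 and 97.2 CPM, a log2 fold change of 0.19.

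Not all chaperones stood equally high. Atf4, the factor translated when eIF2 alpha is phosphorylated, and Pdia4, Dnajb11, Hyou1, Calr, Herpud1 and Creld2 had log2 fold changes of 0.14 (Herpud1) to 0.28 (Creld2), and Calr and Creld2 overlapped between the groups. Hsp90b1 (GRP94) was at 304.7, 281.5 and 301.3 CPM with saline and 307.9, 306.1 and 321.2 CPM with morphine. Its groups did not overlap, but the log2 difference was only 0.07 ± 0.06 with an adjusted p of 0.768. Canx (calnexin) and Dnajb9 were below saline by point estimate, at -0.05 and -0.15.

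The promoters of this list were read because its members stood together. The ER stress response element, searched on both strands as CCAAT and CCACG with 9 bases of any kind between them, occurred in the 250 bases before the RefSeq start (GRCm38.p6) of 8 of 21 matched members (38.1%), 0 of 28 matched immediate early genes and 35 of 27025 genes in all (0.13%). The list was made up of genes of this response and the search used sequence alone, so these shares do not bear on morphine. The sites are shown as 30 bases on the strand of each gene, with the fixed letters of the element in capitals. The search fixed the spacing, so it is the same at every site and cannot differ between members. The first 4 lines are members that were higher with morphine, and the rest are members with an unadjusted p above 0.05.
Hspa5, chr2:34772020-34772049 (+): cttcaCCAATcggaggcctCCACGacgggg
Pdia6, chr12:17266486-17266515 (+): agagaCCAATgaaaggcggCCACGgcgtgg
Creld2, chr15:88819515-88819544 (+): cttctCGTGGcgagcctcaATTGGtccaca
Calr, chr8:84847069-84847098 (-): caacgCGTGGtcgaccctcATTGGcccata
Dnajc3, chr14:118937822-118937851 (+): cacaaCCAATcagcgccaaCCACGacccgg
Syvn1, chr19:6046527-6046556 (+): cgcaaCCAATcggcggtagCCACGggaaca
Canx, chr11:50325794-50325823 (-): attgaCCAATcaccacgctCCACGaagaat
Hsp90b1, chr10:86705632-86705661 (-): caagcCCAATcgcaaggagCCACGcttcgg
Hsp90b1, second match, chr10:86705527-86705556 (-): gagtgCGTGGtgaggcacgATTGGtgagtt

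Creld2, Calr and the second Hsp90b1 match hold the element in the reverse orientation, where the capitals read as its complement. Hsp90b1, the member with a pair of matches, had a log2 difference of 0.07. Xbp1, Manf and Sdf2l1 stood higher with no match to these letters in the window, which says only that the letters are not there. The cyclic AMP response element TGACGTCA, on both strands, was in 3 of 28 early gene promoters (10.7%: Btg2, Dusp1 and Maff), against 1.77% of all promoters. At 4 months Btg2 was the lower early gene, Dusp1 had a log2 difference of 0.07 and Maff one of -0.15. The shorter TGACG, which the full element contains, was in 64.3% of early gene promoters, 47.6% of unfolded protein response promoters and 19.8% of all. These shares too come from sequence alone and do not bear on morphine.

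Glucocorticoid-responsive genes stood lower with morphine. Of 29 tested, 9 were lower and 1 was higher at an unadjusted p under 0.05, against 4.2% and 4.91% of all genes. The groups did not overlap for 9, all lower, against 8.22% of all genes. The median log2 fold change was -0.10, and it was -0.04 without morphine replicate 3, -0.05 without morphine replicate 2 and -0.06 without saline replicate 2. Sult1a1, a phenol sulfotransferase (chromosome 7, 126672865 to 126676432), read 13.9, 17.5 and 17.8 CPM with saline and 12.1, 8.91 and 9.47 CPM with morphine. Its log2 fold change was -0.69 ± 0.16, with an adjusted p of 0.168 in edgeR and 0.00856 in DESeq2, and it overlaps a tested gene on the other strand. Hif3a, a hypoxia-inducible factor subunit, read 13.6, 17.0 and 15.2 CPM and then 12.2, 10.2 and 8.98 CPM. Fkbp5, the co-chaperone that lowers glucocorticoid receptor affinity (chromosome 17, 28399094 to 28517527), read 52.0, 53.9 and 59.2 CPM and then 48.8, 44.7 and 39.3 CPM. All morphine libraries were below all saline libraries for both, and the Fkbp5 log2 fold change was -0.31 ± 0.10 with an adjusted p of 0.313.

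Members of the list carried by glia were among the lower ones. They were the gap junction gene Gjb6, the phagocytic receptor Mertk and the glucose transporter Slc2a1 of astrocytes and vessels, with log2 fold changes of -0.33, -0.26 and -0.31. Sesn1, Sgk1, Mt1 and Mt2 were at -0.22, -0.22, -0.40 and -0.44, and Cdkn1a, a cell cycle inhibitor, was the higher member at 0.25. Per1 and Tsc22d3 (GILZ), also direct targets of the receptor, were at 0.06 and -0.00. With the layer score in the model, Fkbp5 was at -0.09, the median of the list was -0.05 and 1 member had an unadjusted p under 0.05. With the myelin score the median of the list was -0.14. Astrocyte markers stood lower in the same libraries, with a summed level of 8267 to 9044 CPM with saline and 7394 to 7995 CPM with morphine. Their part in the result was not tested.

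The opioid receptors and peptides were measured from low to moderate levels. On the TPM scale, which corrects read counts for transcript length, saline levels were 32.0 ± 1.76 for Oprl1 (the nociceptin receptor), 15.6 ± 0.62 for Oprd1 (delta), 3.41 ± 0.77 for Oprm1 (mu) and 0.481 ± 0.169 for Oprk1 (kappa) (SD, n = 3). These 4 levels lay in that order without overlap of their spreads. Among the peptide precursors, Penk had 78.1 TPM, Pdyn 20.1, Pnoc 5.31 and Pomc 0.954. Of the 8 genes, 3 were higher at an unadjusted p under 0.05 and none was lower, against 4.91% and 4.2% of all genes. The median log2 fold change was 0.18, but 0.01 without saline replicate 2, 0.07 without morphine replicate 1 and 0.09 without saline replicate 3. It was 0.00 with the layer score in the model and -0.10 with the myelin score.

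The 3 were the classical receptors. Oprd1 (chromosome 4, 132110726 to 132144486) read 34.3, 29.6 and 30.1 CPM with saline and 38.7, 41.1 and 36.7 CPM with morphine. The groups were apart by a small margin, with a log2 fold change of 0.31 ± 0.08 and an adjusted p of 0.194 in edgeR and 0.0381 in DESeq2. Oprk1 (chromosome 1, 5588466 to 5606131) read 1.17, 0.548 and 0.516 CPM and then 1.86, 2.57 and 2.01 CPM, a log2 fold change of 1.50 ± 0.46 with an adjusted p of 0.313. Oprk1 is sparse, and with the layer score its log2 difference was 0.42 with an unadjusted p of 0.365. Oprm1 (chromosome 10, 6758506 to 7038198), the receptor of morphine itself, read 3.75, 2.48 and 2.98 CPM and then 3.59, 4.30 and 5.43 CPM. Its groups overlapped through saline replicate 1 and morphine replicate 1, the log2 difference was 0.53 ± 0.24 with an adjusted p of 0.532, and with the layer score the difference was -0.17. It had an unadjusted p under 0.05 in 2 of the 6 fits that left out a 4-month library, and it overlaps a tested gene on the other strand.

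The peptides showed no such order. Penk (proenkephalin) read 42.6, 36.2 and 38.3 CPM with saline and 34.6, 25.6 and 43.2 CPM with morphine, an overlap that spans the whole saline range. Pdyn (prodynorphin) was slightly lower in every morphine library, at 22.3, 21.4 and 22.7 CPM against 20.3, 21.1 and 19.2 CPM, with a log2 difference of -0.13 and an adjusted p of 0.810. Pnoc, Pomc and Oprl1 had log2 differences of -0.25, 0.35 and 0.04 with overlapping groups for all 3. Downstream of the receptors, 3 of 39 signalling genes were higher and 2 lower at an unadjusted p under 0.05, shares close to the 4.91% and 4.2% of all genes, and the median was -0.01. Those above saline were Rgs9, which speeds the shut-off of G proteins, the receptor kinase Grk6 and the adenylyl cyclase Adcy3, at 0.38, 0.20 and 0.16. Rgs7 and the cyclase Adcy2 were below it, at -0.16 and -0.13.

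**Figure D3:**
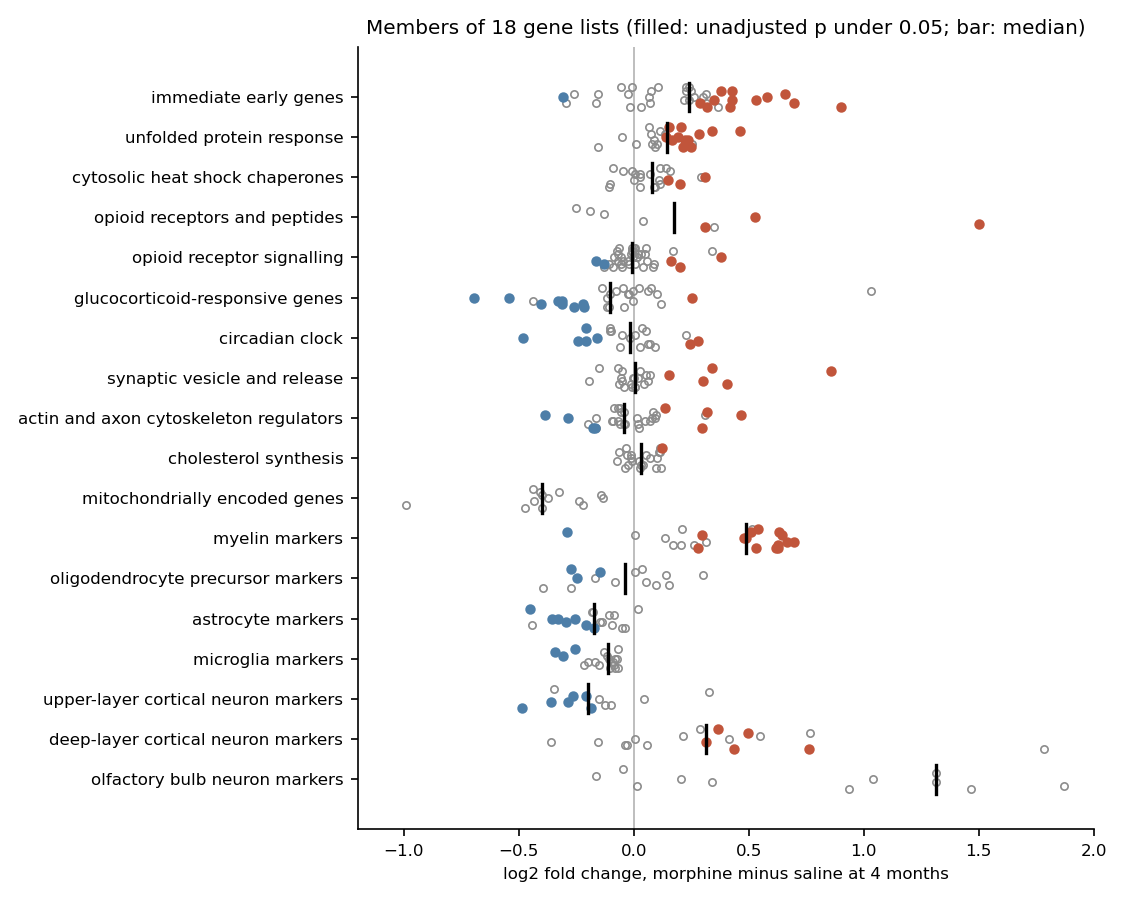
Log2 fold change of morphine over saline at 4 months for each member of 18 gene lists; filled points have an unadjusted p under 0.05 in edgeR, the short bar is the list median, and 4 members lie outside the drawn range of -1.2 to 2.0. The immediate early, unfolded protein response, heat shock, myelin, deep-layer and olfactory bulb lists have most members to the right of 0. The glucocorticoid, astrocyte, microglia, upper-layer and mitochondrially encoded lists have most to the left.

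Markers of cell types and layers also differed between the groups. The median log2 fold changes of myelin and deep-layer markers, 0.49 and 0.32, lay farther from 0 than those of the response lists. The latter were 0.24 for early genes, 0.15 for the unfolded protein response and -0.10 for glucocorticoid-responsive genes. Upper-layer and astrocyte markers had medians of -0.20 and -0.18. Meningeal fibroblast markers had a median of -0.40 with 15 of 16 below 0, and -0.205 to -0.629 with a 4-month library left out. Of these 16, 1 was lower and 1 higher at an unadjusted p under 0.05, and the groups overlapped in mean log2 CPM. Blood cell markers had a median of 0.25 with 12 of 13 above 0, and 0 had an unadjusted p under 0.05. Myelin markers were higher for 14 of 23 and lower for 1 at an unadjusted p under 0.05, against 4.91% and 4.2% of all genes, with a median log2 fold change of 0.49. With the layer score in the model the median was 0.18 and 1 member had an unadjusted p under 0.05. Trf (transferrin), made by oligodendrocytes, read 44.2, 34.8 and 36.6 CPM with saline and 67.3, 52.0 and 49.6 CPM with morphine, with a log2 fold change of 0.54 ± 0.11 and an adjusted p of 0.141 in edgeR and 0.00157 in DESeq2. Its groups were apart, as were those of Mbp (myelin basic protein) at 377.6, 226.7 and 251.3 CPM against 478.4, 428.2 and 416.1 CPM. The count of higher myelin markers was 18 without saline replicate 1, 6 without saline replicate 2, 9 without saline replicate 3 and 7 without morphine replicate 1. Enpp2 (autotaxin), which choroid plexus and other cells also make, was the lower member at -0.29.

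Layer markers split by depth. By point estimate 10 of 12 upper-layer markers were below 0 and 2 above. At an unadjusted p under 0.05, 6 were lower and 0 higher, against 4.2% and 4.91% of all genes. Their summed level was 1772 to 1871 CPM with saline and 1509 to 1617 CPM with morphine. Calb1 (calbindin), of superficial pyramidal cells and some interneurons, read 149.3, 147.4 and 153.0 CPM and then 114.6, 97.6 and 109.4 CPM, a log2 fold change of -0.48 ± 0.10 with an adjusted p of 0.143 in edgeR and 0.00301 in DESeq2. Rasgrf2, a Ras exchange factor, read 384.3, 444.4 and 469.4 CPM and then 346.0, 324.1 and 339.6 CPM. Of 17 deep-layer markers 13 were above 0 and 4 below by point estimate, with a median of 0.32. At an unadjusted p under 0.05, 5 were higher and 0 lower, against 4.91% and 4.2% of all genes. The count was 3 without saline replicate 2 and 3 without morphine replicate 3. Bcl11b (CTIP2), the factor of subcerebral projection neurons, read 75.1, 53.4 and 55.9 CPM with saline and 82.2, 85.7 and 81.8 CPM with morphine. Hs3st4, Rprm, Tle4 and Foxp2 were the other higher deep-layer genes, at 0.76, 0.50, 0.32 and 0.37. Tbr1, of the deepest layer, differed by -0.03.

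Astrocyte and microglia markers were mainly lower by point estimate, and oligodendrocyte precursor markers lay 7 above and 7 below 0, with a median of -0.04. Of these 14 precursor markers 3 were lower at an unadjusted p under 0.05 and 0 were higher, against 4.2% and 4.91% of all genes. The 3 became 2 to 3 with a 4-month library left out. Of 18 astrocyte markers 7 were lower at an unadjusted p under 0.05 and none was higher, against 4.2% and 4.91% of all genes. The count was 4 without saline replicate 3 and 4 without morphine replicate 2, and with the layer score it was 0 with a median of -0.02. With the myelin score the median was -0.15. Gja1 (connexin 43) read 185.6, 193.8 and 199.0 CPM with saline and 163.5, 157.3 and 150.1 CPM with morphine. All 18 microglia markers were below 0 by point estimate and 3 of them, P2ry13, P2ry12 and Selplg, had an unadjusted p under 0.05, but only 1 without saline replicate 1 or without saline replicate 3. The summed microglial level was 469.6 to 503.2 CPM with saline and 415.4 to 458.5 CPM with morphine. Endothelial and mural markers gave no gene at an unadjusted p under 0.05. For the olfactory bulb list the median was 1.31, but -0.11 without morphine replicate 3. In that library Th (tyrosine hydroxylase, of dopamine neurons) read 12.9 CPM against 0.0865 to 0.703 CPM in the other 5, and Cdhr1 read 46.9 CPM against 3.42 to 5.53 CPM. The 13 mitochondrially encoded genes were all below 0, with a median of -0.40. None had an unadjusted p under 0.05, although their summed level was apart, 42240 to 45540 CPM with saline and 32450 to 39990 CPM with morphine.

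**Figure D4:**
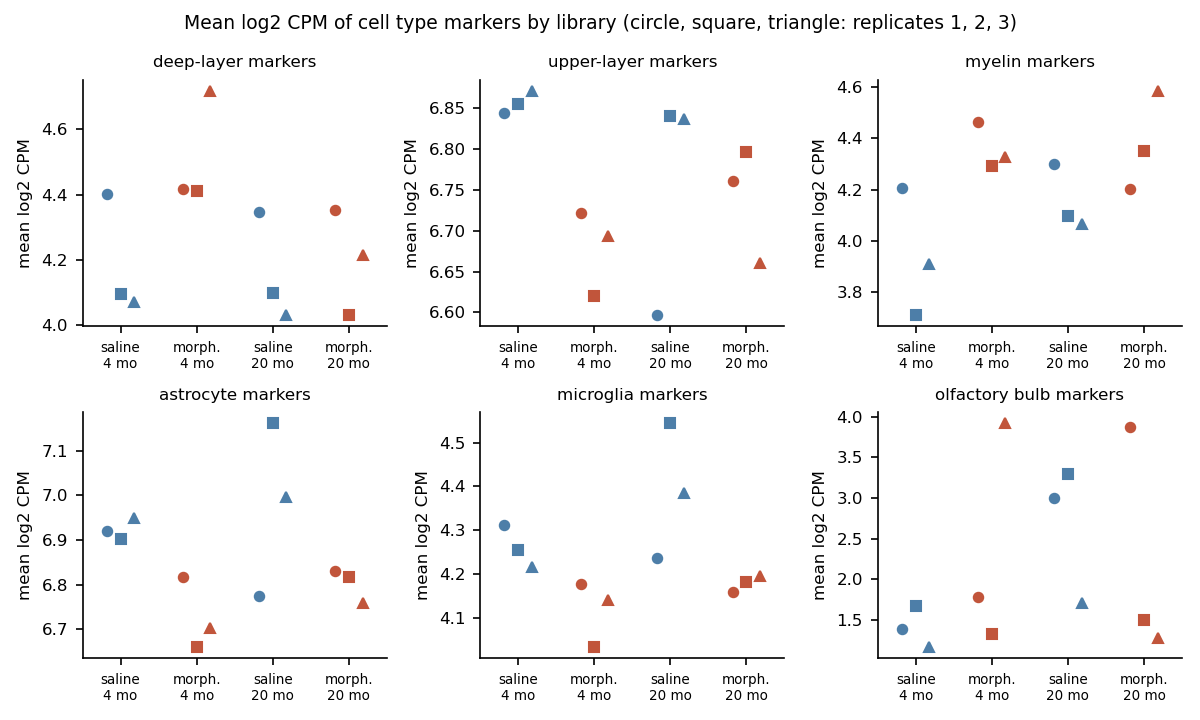
Mean log2 CPM of 6 marker lists in each of the 12 libraries by group. At 4 months the myelin lists lie higher and the upper-layer, astrocyte and microglia lists lower with morphine, and morphine replicate 3 alone stands out in olfactory bulb markers.

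At the transcript level, the share of each transcript in the summed TPM of its gene was tested for 40700 transcripts of 11018 genes. A single transcript passed an adjusted p of 0.05 in limma (0.00246%), and 1580 had an unadjusted p under 0.05 (3.88%). It was Fam241b-202, a protein-coding transcript of a gene with 11 listed transcripts. Its TPM was 13.2, 13.1 and 8.33 with saline, from 215, 175.6 and 80.8 estimated reads, and it was listed at 0 in all 3 morphine libraries. The mean share was 28.8 ± 6.45% (SD, n = 3) with saline, and the difference on the logit scale was -5.36 ± 0.37 with an adjusted p of 0.00189 in limma. Reads for the whole gene were 448.1 to 786.2 with saline and 637.1 to 2509 with morphine. In the same libraries Fam241b-208 had 9.10, 4.32 and 5.43 TPM with saline and 18.9, 18.6 and 19.8 TPM with morphine. Its share was 15.8 ± 6.40% and 49.9 ± 3.67% (SD, n = 3), and that difference had an adjusted p of 1 in limma. The 20-month libraries gave Fam241b-202 at 23.2, 16.7 and 17.2 TPM with saline and 21.7, 19.04 and 14.8 TPM with morphine. An exact 0 in such estimates can be a failed split between similar transcripts: 867 of the tested transcripts were at 0 in the whole of 1 young group only, and so were 13 of the 20 with the smallest p. With transcripts above 0 TPM in every library alone, none passed.

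Of the other 7 transcripts with the smallest p in named genes, all but Gpx7-201 were also at 0 in a whole 4-month group. Ddx31-203 (an RNA helicase gene) was listed at 0 in the saline libraries and at 3.33, 1.08 and 1.70 TPM with morphine, with an adjusted p of 0.0886 in limma. Dhx32-208, from another helicase gene, was at 0 with saline and at 1.02, 1.72 and 2.35 TPM with morphine, with an adjusted p of 0.0918. Spats2l-204 reached 4.03, 1.80 and 19.5 TPM from 0, Bcs1l-204 reached 1.01, 2.03 and 1.02 TPM, and Olfr690-203 reached 1.16, 0.846 and 0.924 TPM. Gpx7-202 was at 2.56, 0.528 and 1.72 TPM with saline, from 6.1, 1.0 and 2.5 reads, and at 0 with morphine. Gpx7-201, of the same gene, read 3.20, 4.76 and 3.46 TPM with saline and 3.54, 3.26 and 5.36 TPM with morphine, levels that overlapped. Ddx31-203, Dhx32-208 and Bcs1l-204 were above 0 TPM in every 20-month library, and Olfr690-203 and Gpx7-202 were at 0 in each. Spats2l-204 at 20 months was at 0 with saline and at 5.59, 9.55 and 8.48 TPM with morphine.

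A few transcripts were read after their values had been seen, for the genes above. Homer1-204 had 59.0, 42.4 and 55.2 TPM with saline and 89.0, 76.6 and 75.0 TPM with morphine. Its share of Homer1, which encodes a postsynaptic scaffold, was 20.7 ± 2.24% and 25.6 ± 1.50% (SD, n = 3), apart between the groups, with an adjusted p of 1 in limma. Xbp1-202, which retains an intron, took 10.7 ± 0.33% of Xbp1 with saline and 8.20 ± 1.06% with morphine (SD, n = 3), also with an adjusted p of 1. Oprm1-215 was the main mu receptor transcript of the 31 listed, with 2.74, 1.83 and 1.38 TPM and then 2.75, 2.97 and 4.54 TPM. Its share was too variable to separate the groups, 60.2 ± 22.4% and 69.7 ± 9.12% (SD, n = 3). Both main Inf2 transcripts carried its higher level: Inf2-201 read 25.98, 22.9 and 23.6 TPM and then 31.1, 35.3 and 35.1 TPM, and Inf2-203 read 18.4, 20.5 and 20.7 TPM and then 28.3, 34.5 and 34.2 TPM.

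**Figure D5:**
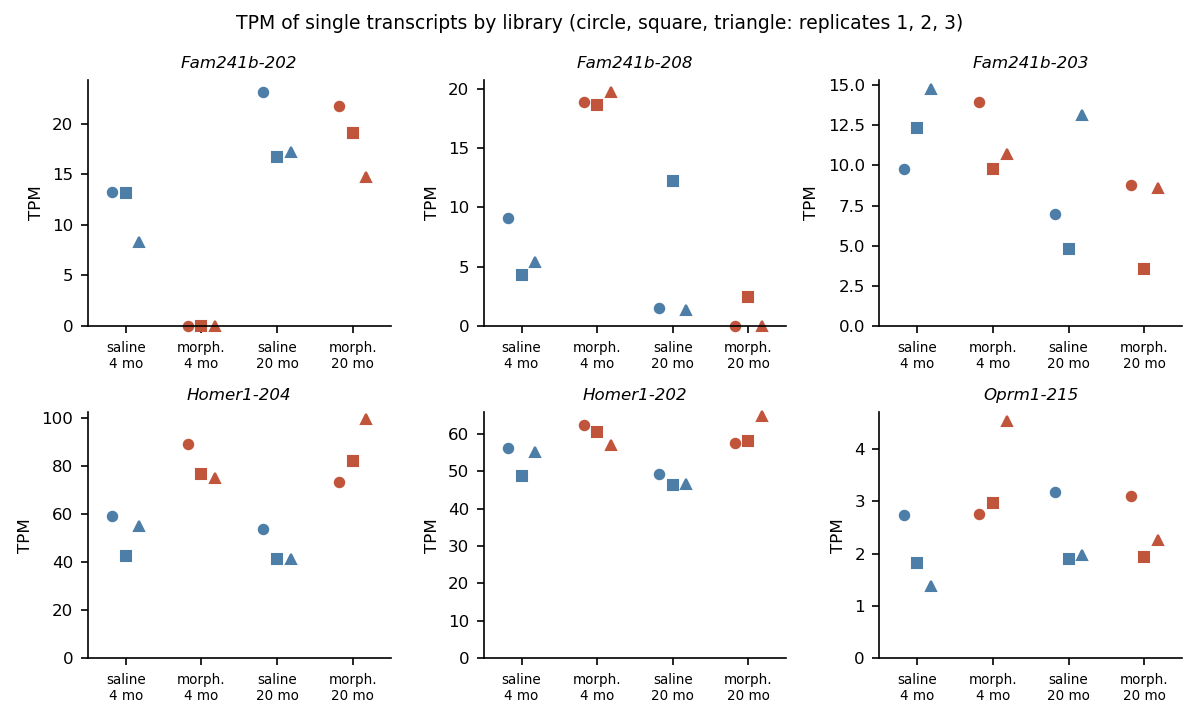
TPM of 6 transcripts in each library of the 4 groups; vertical axes start at 0. Fam241b-202 is at 0 in the 3 morphine libraries of 4 months and in no other library, and Fam241b-208 and Homer1-204 lie higher in those libraries than with saline.

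The 20-month comparison had its own saline group, and edgeR called 98 genes there (0.583%). The difference of the morphine effect between the ages passed an adjusted p of 0.05 for no gene in edgeR (0 of 16796, 0.0%, with 1808 or 10.8% at an unadjusted p under 0.05), where the smallest adjusted p was 0.255. DESeq2 called 115 and edgeR with the myelin score 107. Arc rose at 20 months by a log2 fold change of 1.88 ± 0.24 (adjusted p of 0.0174 in edgeR), against 0.90 at 4 months, and the difference had an adjusted p of 0.369. Egr2 rose by 2.08 at 20 months (adjusted p of 0.000372), against 0.70, and the difference had an adjusted p of 0.255. Hspa5 rose by 0.49 at 20 months (adjusted p of 0.0174), against 0.34, with an adjusted p of 0.684 for the difference. Fkbp5 fell by 0.49 on the log2 scale at 20 months (adjusted p of 0.0382), against -0.31, with an adjusted p of 0.674 for the difference.

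The medians of 3 response lists had the same sign at both ages. The median log2 fold changes at 4 and 20 months were 0.24 and 0.43 for immediate early genes, 0.15 and 0.19 for the unfolded protein response and -0.10 and -0.31 for glucocorticoid-responsive genes. At 20 months, 20 of 37, 16 of 24 and 16 of 29 members lay in those directions at an unadjusted p under 0.05, where 10.1% of all genes were higher and 8.56% lower. Other genes stood on opposite sides at the 2 ages. Plagl1 was at -0.49 and 0.15, Nyap2 at -0.39 and 0.05, Tmem196 at -0.39 and 0.23 and Palmd at -0.12 and 0.38. With Sox11 and Egr2 these were the 6 named genes with the smallest p for the difference, and each had an adjusted p of 0.255 in edgeR. Oprk1 was at 1.50 and -0.50, and that difference had an adjusted p of 0.340.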

How the data were processed

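RNA was extracted with Trizol and libraries were made with a ribosomal RNA depletion kit and sequenced on a NovaSeq, per the labels' protocols. The authors deposited, for each library, estimated counts (read numbers per transcript), TPM and lengths from Salmon 1.4.0 on GRCm38, with DESeq2 1.30.1 also listed per the submitters' processing notes. Strand and bias settings and the annotation release are not given in the sources used here. Transcripts were matched to GENCODE M21 (113694 of 113911, in 35272 genes), and the 217 unmatched ones were left out. Gene totals of these estimates, rounded to whole numbers, were the input. edgeR 4.0.16 (R 4.3.3) kept 16796 genes by its group-wise filter and fitted all 12 libraries with 1 coefficient per group, TMM scaling and robust quasi-likelihood (8 residual degrees of freedom, common coefficient of variation 11.1%). Each SE is the absolute log2 fold change over the square root of F. Transcript shares from the deposited TPM were tested with limma 3.58.1 on the logit scale with an offset of 0.01, and DESeq2 1.42.0 was an alternative. P-values were adjusted by Benjamini-Hochberg, over all features tested in edgeR and limma. DESeq2 kept its default filter on mean counts and its outlier rule, so its adjustment could run over fewer genes. A count of 0 allows up to 3 reads, 0.0202 to 0.117 CPM in the 4-month libraries, for counting error only. Replicates were not copies of each other (chi-square per degree of freedom 5.173 to 24.71). The analysis was tested on simulated counts.

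Named genes were the 12 higher and 12 lower with the smallest p among named genes of at least 1 CPM whose groups did not overlap, up to 4 genes of each list, all opioid receptors and peptides, Arc, Fos, Egr2, Npas4 and Fkbp5, 6 genes for the difference between ages and 8 transcripts. Members and lists were chosen with earlier results of these data known. Further members named within a list were chosen after their values were seen. Promoters came from RefSeq (GRCm38.p6). Alternatives covered scaling, filtering, the tool, GC and length trends, marker scores, the replicate block, thinning of the deepest library, the 4-month libraries alone and each library left out. A few single genes of the marker lists are not reported here.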

Additional observations from a re-analysis of the deposited data

Results flagged for a closer look

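For 3 named genes every morphine library lay on one side of every saline library at 4 months and on the opposite side at 20 months. Rgs7, which speeds the shut-off of G proteins downstream of opioid receptors, had log2 fold changes of -0.16 at 4 months and 0.13 at 20 months. Hlf, a clock-controlled transcription factor, was at -0.16 and 0.11. Sox11, a factor of the SRY-related family, was at -0.16 and 0.38, from 33.5, 34.3 and 32.6 CPM with saline and 30.7, 28.8 and 30.2 CPM with morphine at 4 months to 22.9, 26.4 and 25.7 CPM and 33.0, 33.7 and 31.0 CPM at 20 months. The difference between the ages did not pass for Rgs7, Hlf or Sox11 in edgeR, with adjusted p of 0.271, 0.271 and 0.255. This pattern of opposite, non-overlapping groups was found for 194 genes, 1.16% of those tested.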

How the results depend on the processing

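The absence of calls at 4 months does not show that genes did not differ. Genes called at 4 months numbered 0 in edgeR, 4 with upper quartile scaling (Cntn2, Inf2, Nyap2 and Serinc2), 14 with no filter on low counts, 164 with DESeq2, 2 with limma-voom, 16 in the 4-month libraries with the GC and length trend removed, 321 with DESeq2 on the 4-month libraries and 0 to 67 with a 4-month library left out, the 67 without saline replicate 1. They numbered 6 without the first 20-month saline library. Genes at an unadjusted p under 0.05 numbered 1530, 834 with the layer score and 977 (without saline replicate 3) to 1940 (without saline replicate 1) with a library left out. Genes whose effect differed between the ages numbered 0, then 115 with DESeq2, 107 with the myelin score and 1 without the first 20-month morphine library. Transcript shares gave 1 call, then 12 with an offset of 0.001, 12 in the 4-month libraries alone, 0 above 0 TPM in every library, 21 with edgeR's diffSpliceDGE and 3 to 16 with a library left out. The causes were not tested. Each of the 24 leading genes had the same sign under all 29 alternatives. They were chosen for groups without overlap in the same libraries, which largely set the sign, so this is no further test. Some alternatives left out a 20-month library only. With length-scaled counts the log2 fold change was -0.05 instead of -0.40 for Kitl and -0.14 instead of -0.49 for Plagl1.

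Replicate numbers are shared by the groups but did not pair the libraries: same-numbered libraries at 4 months had correlations of deviations of 0.057, -0.056 and -0.003. With the replicate block, 1 gene was called at 4 months (Onecut2, listed at 0 with saline and at 8.88, 11.9 and 0 CPM with morphine), and 2 with the GC and length trend also removed. The block gave 1 gene, or 2 with that trend removed, for the difference between ages and 3 transcripts for the shares.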

Other observations

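Other gene groups were counted at 4 months in the same way, where 4.91% of all genes were higher and 4.2% lower at an unadjusted p under 0.05. Clock genes had 2 higher and 5 lower of 21, the 5 becoming 2 without morphine replicate 2 and 3 without saline replicate 2. Per2, a repressor of the clock, read 58.2, 55.5 and 54.5 CPM with saline and 68.2, 68.6 and 67.2 CPM with morphine, apart by a log2 fold change of 0.28 with an adjusted p of 0.395 in edgeR. Ciart, another clock repressor, read 12.7, 16.5 and 14.0 CPM and then 9.99, 9.21 and 11.8 CPM, at -0.48. Of 32 actin and axon genes, 4 were higher (Inf2, the formin Fmnl1 and the cofilin kinases Limk1 and Limk2) and 4 lower (Nyap2, the formin Diaph2 and Wasf1 and Abi1 of the WAVE complex). The 4 lower became 2 without saline replicate 1 or without morphine replicate 3. Diaph2 read 59.2, 64.2 and 62.8 CPM with saline and 48.1, 53.6 and 50.6 CPM with morphine, with an adjusted p of 0.177 in edgeR and 0.0309 in DESeq2. Of 25 synaptic vesicle genes 5 were higher (3 without saline replicate 2 or without saline replicate 3) and none lower, among them Vamp1, a vesicle fusion protein, at 74.7, 66.5 and 66.6 CPM and then 88.5, 87.9 and 79.4 CPM. Vamp1, Syt2 and Cplx1 had log2 fold changes of 0.30, 0.86 and 0.41, the list median was 0.00, and Vamp1 and Syt2 overlap a tested gene on the other strand.

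Among 40 monoamine and neuropeptide receptors, 4 were higher at an unadjusted p under 0.05 (Chrm2, Hcrtr2, Drd1 and Htr1f) and 3 lower (Npy1r, Cnr1 and Adra2a). The shares of all genes were 4.91% and 4.2%. The 4 higher became 7 without saline replicate 1, 1 without saline replicate 3 and 2 without saline replicate 2 or without morphine replicate 3. Chrm2, the inhibitory muscarinic receptor, read 9.59, 5.22 and 7.69 CPM with saline and 12.1, 12.99 and 18.4 CPM with morphine, with an adjusted p of 0.329 in edgeR and 0.0139 in DESeq2. With the layer score in the model its log2 difference was 0.24 instead of 0.94, and that of Drd1 was -0.01 instead of 0.65. Npy1r, a receptor of neuropeptide Y, read 36.6, 39.5 and 40.3 CPM and then 34.9, 30.2 and 31.3 CPM, and Cnr1, the cannabinoid receptor that shares inhibitory G proteins with the opioid receptors, had a log2 difference of -0.16. Cytosolic heat shock genes had 3 higher of 22 (Cryab, Fkbp4 and Hsf1), 7 without saline replicate 1, and cholesterol synthesis genes 1 of 22, with none lower in either.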
